A study of Mus musculus with 2 samples.

Results

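The 10 genes described here encode a ligand, the receptors and the main feedback genes of fibroblast growth factor (FGF) signalling through extracellular signal-regulated kinase (ERK): Fgf4, Fgfr1, Fgfr2, Dusp6, Dusp4, Spry2, Spry4, Etv4, Etv5 and Phlda1. They were picked by name for these roles, with earlier results of these data known. The table of transcript counts held 52366 genes, of which 23171 had at least 1 count in the embryos used. Counts are of unique molecular identifiers (UMIs), the tags that mark captured transcripts, and levels are given as counts per 1e6 UMIs of the embryo (CPM). Because the CEL-Seq2 protocol used here reads the 3′ end of a transcript, no correction for gene length was made, and levels are compared within a gene between embryos rather than between genes.

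In the mouse blastocyst, FGF4 made by epiblast precursors binds FGFR1 and FGFR2 on other cells of the embryo. The active receptors recruit adaptors that load RAS with GTP, and RAF, MEK and ERK are then phosphorylated in sequence. ERK raises the transcription of its own brakes, among them the phosphatase DUSP6 and the Sprouty proteins, and of the ETS factors ETV4 and ETV5, and the signal is known for directing cells of the inner cell mass (ICM) towards primitive endoderm and for maintaining trophoblast stem cells.

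The embryos were 24 pseudoblastocysts at 96 hours postinsemination (hpi), that is, embryos with a cavity whose ICM was not assessed and which can therefore include vesicles made of trophectoderm alone. All came from B6D2F1 oocytes inseminated with ICR sperm and all had their zona pellucida removed with Actinase E. The 6 1C embryos lost it as zygotes at 5 hpi and were not divided, whereas the 6 2CB embryos each grew from 1 blastomere isolated at the 2-cell stage (24 hpi), and the 6 4CB and 6 8CB embryos each grew from 1 blastomere of the 4-cell or 8-cell stage (both 48 hpi). The embryos were sequenced in 2 library pools, called here the 2CB/4CB pool and the 1C/8CB pool after the stages they held. Any difference between these pools is one of stages and of libraries, which cannot be told apart, while 4CB against 2CB and 8CB against 1C are comparisons within a pool. Which embryos came from the same parent embryo was not given in the sources used here, so p-values measure the spread between these embryos.

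Depth was uneven: the 8CB embryos held 70941 to 356749 UMIs each and the 1C embryos 123594 to 368348, against 332867 to 1507471 for 2CB and 132725 to 1130360 for 4CB. A gene without a UMI in a group was given a limit of 3 counts, which is 2.07 CPM over the 1C embryos and 2.00 CPM over the 8CB embryos. Each library is a whole embryo, so fewer cells of a type and less RNA per cell cannot be told apart. Of the defining lineage markers, Nanog, Gata6, Cdx2 and Gata3 had UMIs in all 24 embryos, but others did not. Sox2 had UMIs in 12 of 12 embryos of the 2CB/4CB pool and 7 of 12 of the other, Gata4 in 8 and 7, Sox17 in 10 and 2 and Elf5 in 12 and 1. Pou5f1, an ICM gene, was found in 8 and 7 and did not exceed 16.2 CPM in any embryo.

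Only 5 of the 10 genes, Fgfr1, Fgfr2, Dusp6, Spry2 and Phlda1, passed the filter on low counts and were tested in the fit over 5940 genes. Among the 4 stages, 4 of these 5 differed at an edgeR adjusted p below 0.1, as did 47.1% of all tested genes. Dusp6, Fgfr1, Spry2 and Phlda1 were higher in the 2CB/4CB pool than in the 1C/8CB pool and none was lower, in a contrast in which 55.3% of tested genes were called, 31.3% higher and 24% lower. In 4CB against 2CB, Phlda1 alone was called, among 0.0337% of tested genes (2 of 5940). In 8CB against 1C no member was called by edgeR, and neither was any other gene (0% of 5940, with 550 at an unadjusted p below 0.05), while DESeq2 called 43 genes there and none of the members. Against 1C, 2CB embryos had higher Fgfr1 and Dusp6 in a comparison that called 41.5% of genes. Against 8CB, 4CB embryos had higher Fgfr1, Dusp6, Spry2 and Phlda1 where 40.2% of genes were called. Given these backgrounds, counts across the pools say little about the members as a set, and the size of each gene's difference is given below.

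**Figure D1:**
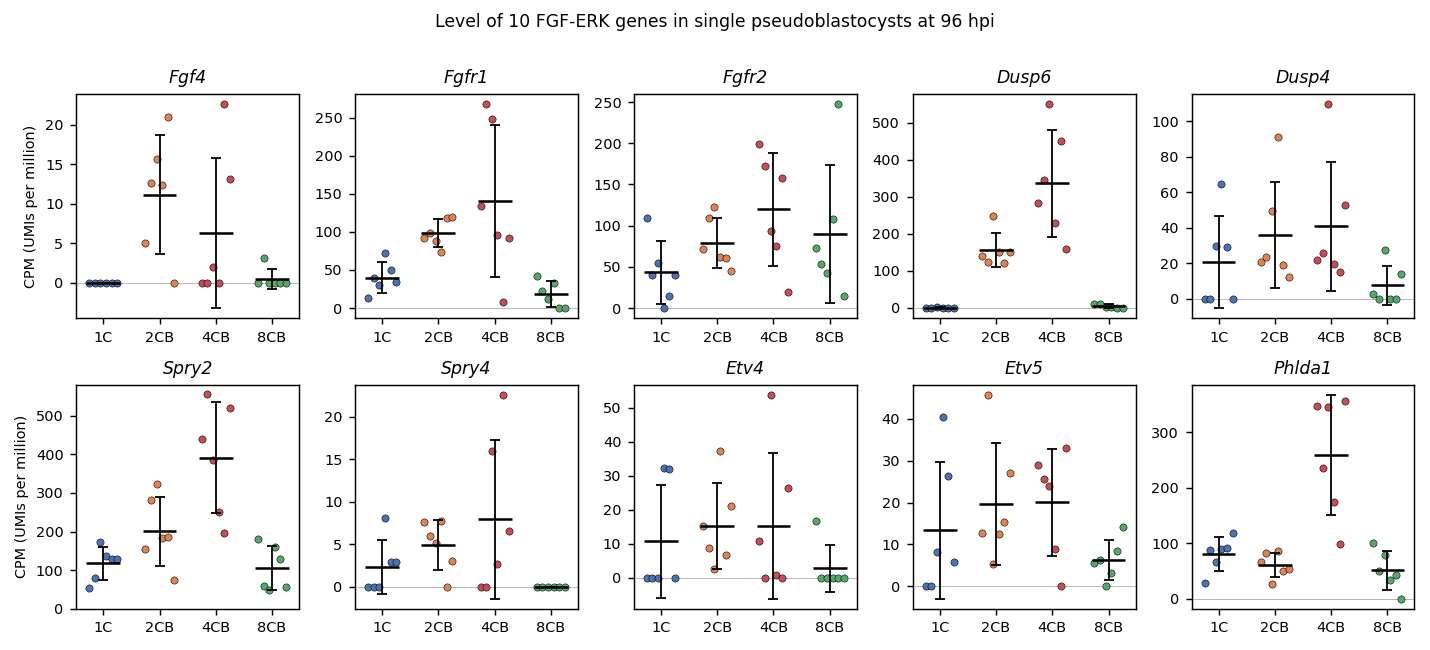
Level (CPM, linear axis, a separate scale for each gene) of the 10 genes in each embryo, by blastomere stage. Points are embryos (6 per stage), long horizontal bars the means and error bars the SD. Dusp6 is at or near 0 in 1C and 8CB and at 121 CPM or more in every 2CB and 4CB embryo, and Phlda1 is higher in each 4CB embryo than in any 2CB embryo.

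Fgf4 (chr7:144847367-144865243, plus strand), the ligand that epiblast precursors release, was sparse, with most of its UMIs in the more deeply sequenced 2CB embryos. No UMI was seen in the 6 1C embryos, and 1 UMI in 1 of the 6 8CB embryos. In 2CB embryos Fgf4 ranged from 0 through a median of 12.5 to 21.0 CPM, on 57 UMIs in 5 of 6 embryos. In 4CB embryos it ranged from 0 through a median of 0.997 to 22.6 CPM, on only 6 UMIs in 3 of 6 embryos. All stages overlapped at 0. Over the pooled UMIs, the level in 2CB was at least 6.40-fold higher than the 1C limit, and that in the 2CB/4CB pool was 27.9 times that in the 1C/8CB pool (95% counting interval 4.83 to 1121), a ratio that rests on 1 UMI, from 8CB replicate 2, without which the lower side is at 0. Without the filter on low counts this contrast was called for Fgf4 (edgeR adjusted p = 0.00266), as it was for 23.8% of 23171 genes, and with every embryo thinned to the lowest total it was 1.76 in place of 3.68 and no longer called (adjusted p = 0.154). Between 4CB and 2CB, the pooled ratio was 0.193 (counting interval 0.0680 to 0.447), yet the embryos' mean levels, 6.30 ± 9.49 and 11.1 ± 7.52 CPM (SD, n = 6 each), gave p = 0.342 in the exact two-sided permutation test and an adjusted p of 0.638 in edgeR without the filter.

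Fgfr1 and Fgfr2, the FGF receptor kinases of the early embryo, are taken in turn, Fgfr1 first. Fgfr1 (chr8:25513654-25575718, plus strand) ranged from 13.7 through a median of 37.4 to 72.8 CPM in 1C and from 74.3 through 95.1 to 120 CPM in 2CB. In 4CB it ranged from 7.53 through 115 to 268 CPM, and in 8CB from 0 through 17.0 to 42.0 CPM. All 2CB embryos were above all 1C embryos, as for 9.73% of tested genes, whereas 1 4CB embryo, number 5, lay among the 8CB values with a single Fgfr1 UMI. The difference between the pools was 1.98 on the log2 scale (SE 0.360, edgeR adjusted p = 4.27e-05). Neither 4CB against 2CB (0.50, SE 0.447, adjusted p = 1.00) nor 8CB against 1C (-0.81, SE 0.559, adjusted p = 0.673) was called, with 95% intervals of -0.37 to 1.38 and -1.90 to 0.29.

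Fgfr2 (chr7:130162451-133123350, minus strand) was detected in 23 of 24 embryos and its groups overlapped throughout. It ranged from 0 through a median of 40.2 to 110 CPM for 1C and from 45.1 through 66.5 to 123 CPM for 2CB. The 4CB range was 19.8 through 126 to 199 CPM and the 8CB range 14.1 through 62.9 to 247 CPM. Between the pools the contrast was 0.62 (SE 0.383, edgeR adjusted p = 0.184, 95% interval -0.13 to 1.37). It passed the threshold without 1C replicate 1 (0.80, adjusted p = 0.0837) or without 8CB replicate 5 (0.83, adjusted p = 0.0633). In the annotation used here the span of Fgfr2 given above takes in many other genes. An exon of Fgfr2 overlaps Ctbp2 on the same strand, which had 202 UMIs, and how reads there were counted is not given in the sources used here.

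Dusp6 (chr10:99263231-99267489, plus strand), which encodes the cytoplasmic phosphatase that removes phosphate from ERK, showed the widest separation of the 10 genes. The 6 1C embryos held 1 Dusp6 UMI together and the 6 8CB embryos held 9, the highest 8CB level being 11.2 CPM. In 2CB embryos the level ranged from 121 through a median of 145 to 248 CPM, and in 4CB embryos from 158 through 314 to 550 CPM. Every 2CB and 4CB embryo was thus above every 1C and 8CB embryo, which was so for no other member and for 3.54% of tested genes. The pooled level in the 2CB/4CB pool was 60.5 times that in the other (counting interval 32.8 to 127), a value whose low side rests on 10 UMIs. Dusp6 passed the filter only through its levels in 2CB and 4CB, so its call is no separate support for the difference. The fitted log2 value, 6.51, became 7.33 without 1C replicate 3, the only 1C embryo with a Dusp6 UMI, and is not a measured fold.

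Within the pools, Dusp6 averaged 336 ± 145 CPM in 4CB and 156 ± 46.7 CPM in 2CB (SD, n = 6 each), with 4 of the 6 4CB embryos above all 2CB embryos. The log2 difference of 1.09 (SE 0.313) had an unadjusted p of 0.00162 and did not pass in edgeR after adjustment (adjusted p = 0.601). An exact two-sided permutation test of the means gave p = 0.0108, unadjusted among 20 such tests. For 8CB against 1C, 4 of 6 8CB embryos and 1 of 6 1C embryos had a Dusp6 UMI, and the pooled ratio of 8.71 (counting interval 1.21 to 382) was not called (edgeR adjusted p = 0.317, exact permutation p = 0.0606).

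The bases before the annotated start of the feedback genes Dusp6 and Spry2 and of the ligand gene Fgf4 are shown, from RefSeq on GRCm38.p6. All 3 genes had a higher pooled level in the 2CB/4CB pool. Each run has 250 bases, 5′ to 3′ on the gene's strand, at chr10:99262981-99263230 (plus), chr14:105896820-105897069 (minus) and chr7:144861136-144861385 (plus), and capitals mark GGAA, the core that ETS factors such as ETV4 and ETV5 bind, read on either strand (GGAA or TTCC).
Dusp6: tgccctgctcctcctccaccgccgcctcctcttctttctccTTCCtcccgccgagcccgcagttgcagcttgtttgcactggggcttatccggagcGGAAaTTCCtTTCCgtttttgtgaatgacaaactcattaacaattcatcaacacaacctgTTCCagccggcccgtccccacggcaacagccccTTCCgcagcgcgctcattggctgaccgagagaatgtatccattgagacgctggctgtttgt
Spry2: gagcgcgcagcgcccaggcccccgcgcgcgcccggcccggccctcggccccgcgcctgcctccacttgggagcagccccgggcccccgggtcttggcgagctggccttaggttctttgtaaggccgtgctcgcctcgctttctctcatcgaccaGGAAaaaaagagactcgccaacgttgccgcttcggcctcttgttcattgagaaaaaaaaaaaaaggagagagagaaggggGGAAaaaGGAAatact
Fgf4: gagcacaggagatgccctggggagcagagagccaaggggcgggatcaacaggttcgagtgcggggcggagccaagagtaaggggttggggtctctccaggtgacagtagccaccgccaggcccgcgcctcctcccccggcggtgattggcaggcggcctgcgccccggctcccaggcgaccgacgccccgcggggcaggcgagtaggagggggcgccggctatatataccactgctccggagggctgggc
The core occurred 6 times before Dusp6, 1 as read and 5 on the other strand, 3 times before Spry2, all as read, and 0 times before Fgf4. Of 32851 windows of the same length in the table, 93.5% held the core at least once, 8.69% held it at least 6 times and 54.7% at least 3 times. The longer letters CCGGAA, which contain the core, were in none of the 3 windows and in 12.03% of all windows, the AP-1 letters TGANTCA in none and in 6.75%, and the CRE letters TGACGTCA in none and in 1.55% (all on both strands). These are matches of letters in a window and not measured binding. The table held windows for 5 of the 10 genes, of which the 3 shown were picked by name and the others were not counted. The RefSeq start of Fgf4 lies inside the longer span given above, which is that of the GENCODE annotation.

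Dusp4 (chr8:34807297-34819894, plus strand), a nuclear phosphatase of the same family, was detected in all 12 2CB and 4CB embryos and in 6 of the 12 others. The 2CB embryos had 12.02 to 91.3 CPM and the 4CB embryos 15.1 to 110 CPM, against 0 to 64.7 CPM for 1C and 0 to 27.3 CPM for 8CB. The groups overlapped, and the pooled ratio between the pools was 2.68 (counting interval 1.91 to 3.85). Dusp4 did not pass the filter. Without the filter, the contrast was 1.61 (SE 0.426, edgeR adjusted p = 0.00166), or 2.55 when 8CB replicate 3, with 9 of the 11 8CB UMIs, was left out, and 1.13 and not called with every embryo thinned to the lowest total (adjusted p = 0.143), and 4CB against 2CB was 0.04 (SE 0.507, adjusted p = 1).

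Spry2 (chr14:105891949-105896819, minus strand), an inhibitor of RAS activation below receptor tyrosine kinases, was detected in every embryo. It ranged from 54.9 through a median of 129 to 174 CPM in 1C and from 48.6 through 93.5 to 179 CPM in 8CB. In 2CB the range was 75.1 through 185 to 323 CPM, and in 4CB 196 through 412 to 555 CPM. All 4CB embryos were above all 8CB embryos, as for 8.27% of tested genes, whereas 2CB overlapped with 1C. The contrast between the pools was 1.27 (SE 0.259, edgeR adjusted p = 1.77e-04). The 4CB mean, 391 ± 144 CPM, was 1.95 times the 2CB mean, 201 ± 89.5 CPM (SD, n = 6 each), a log2 difference of 0.92 (SE 0.350) that was not called (edgeR adjusted p = 1.00, exact permutation p = 0.0260, unadjusted). For 8CB against 1C the difference was -0.13 (SE 0.378, 95% interval -0.87 to 0.61).

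Spry4, a second member of the same inhibitor family, stayed near the limit of detection, with 20 UMIs in the 2CB embryos, 15 in the 4CB, 3 in the 1C and 0 in the 8CB embryos. The highest embryo, a 4CB embryo, had 22.6 CPM on 3 UMIs. The pooled ratio between the pools was 5.17 (counting interval 1.63 to 26.3), called without the filter (edgeR adjusted p = 0.0183). Against the limit for 8CB, the level in 4CB was at least 3.19-fold higher.

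Etv4 (chr11:101769742-101785371, minus strand) and Etv5 (chr16:22381309-22439719, minus strand), ETS transcription factors induced by ERK, were low in all stages. In the order 1C, 2CB, 4CB, 8CB, Etv4 had 15, 58, 35 and 6 UMIs and Etv5 had 19, 109, 39 and 7. Much of this came from few embryos: 69 of the 109 Etv5 UMIs in 2CB were from replicate 2, and 27 of the 35 Etv4 UMIs in 4CB were from replicate 3. Their means in 4CB and 2CB, 15.3 ± 21.5 and 15.2 ± 12.6 CPM for Etv4 and 20.04 ± 12.8 and 19.7 ± 14.6 CPM for Etv5 (SD, n = 6 each), differed by far less than their spread (exact permutation p = 0.998 and 0.976). The contrast across the pools, tested without the filter, was 1.24 for Etv5 (SE 0.521, edgeR adjusted p = 0.0784) and 1.25 for Etv4 (SE 0.566, adjusted p = 0.112). The Etv5 call was lost on leaving out any of 10 of the 24 embryos (1C replicates 1, 2, 3 and 6, 2CB replicate 2, 4CB replicates 1, 3 and 6, and 8CB replicates 3 and 4), with adjusted p up to 0.238 without 2CB replicate 2. The Etv4 contrast passed on leaving out any of 9 (1C replicates 4 and 5, 2CB replicates 2, 3 and 5, 4CB replicates 2, 4 and 5, and 8CB replicate 1), and was 3.11 without 8CB replicate 1, the only 8CB embryo with Etv4 UMIs, where the 8CB side is then at 0. Without 4CB replicate 3 it was 0.60 (adjusted p = 0.708). With every embryo thinned to the lowest total, Etv5 was not called (0.83, edgeR adjusted p = 0.516) and Etv4 was (2.36, adjusted p = 0.0241).

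Phlda1 (chr10:111506286-111508645, plus strand), a pleckstrin-homology protein gene that responds early to growth factors, was the member that changed between 4CB and 2CB. Its level ranged from 97.9 through a median of 290 to 356 CPM in 4CB and from 26.1 through 60.1 to 85.1 CPM in 2CB. It ranged from 27.4 through 88.6 to 118 CPM in 1C and from 0 through 46.2 to 101 CPM in 8CB. Every 4CB embryo was above every 2CB embryo, which was so for 0.152% of tested genes (9 of 5940), while 1C, 2CB and 8CB overlapped. The 4CB mean of 259 ± 108 CPM was 4.28 times the 2CB mean of 60.7 ± 22.3 CPM (SD, n = 6 each). The log2 difference was 2.04 (SE 0.396, edgeR adjusted p = 0.0474), and the exact two-sided permutation test of the means gave p = 0.00216, the smallest it allows for 6 against 6. Without the filter Phlda1 was again the only member called, among 0.207% of genes (edgeR adjusted p = 0.00174).

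The call of Phlda1 depended on depth and on single embryos although its size moved little. It was lost without 2CB replicate 5 (adjusted p = 0.161) or replicate 6 (0.124), and without 4CB replicate 1 (0.117), replicate 2 (0.1001) or replicate 3 (0.149), with log2 differences between 1.86 and 2.21 on leaving out each of the 24 embryos. With every embryo thinned to 70941 UMIs it was 1.91 (edgeR adjusted p = 0.606).

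Between the pools the contrast was 0.88 for Phlda1 (SE 0.288, edgeR adjusted p = 0.0122), with 2CB against 1C at -0.39 (SE 0.404, adjusted p = 0.483) and 4CB against 8CB at 2.16 (SE 0.415, adjusted p = 2.17e-04). These comparisons share embryos, and the values are given side by side.

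**Figure D2:**
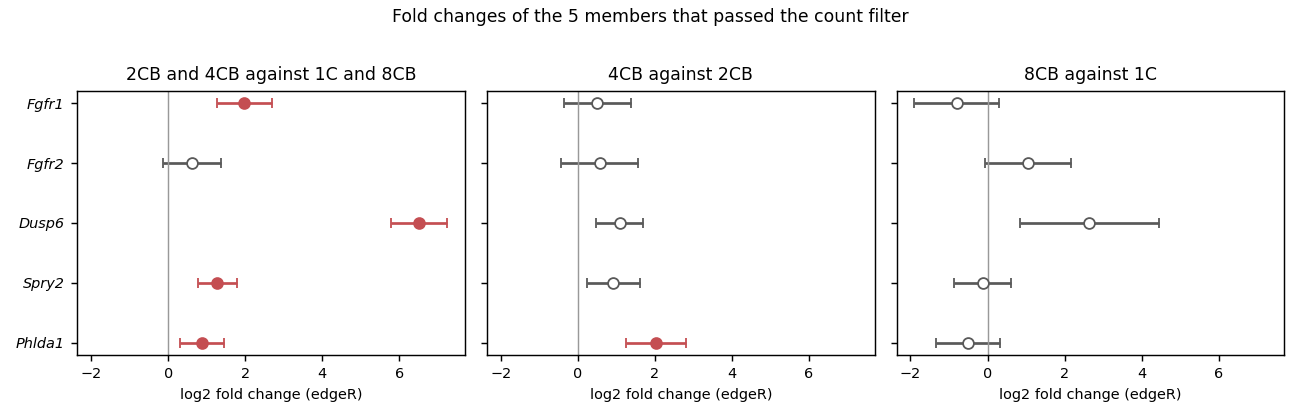
Log2 fold change (horizontal axis) with its 95% interval for the 5 members that passed the count filter, in 3 comparisons of edgeR over 24 embryos. Filled red points passed an adjusted p below 0.1, open points did not. Phlda1 is the filled point of 4CB against 2CB at 2.04, no point is filled in 8CB against 1C, and the Dusp6 value of 6.51 rests on 10 UMIs in 1C and 8CB.

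Between 4CB and 2CB all 5 tested members had positive differences, as did 49% of all tested genes, 3 with an unadjusted p below 0.05 (Phlda1, Dusp6 and Spry2), where 263 of 5940 genes had such a p. DESeq2 called the same number of members, 1. Between 8CB and 1C, 2 of the 5 differences were positive, against 50.1% of all. Of the 5, Dusp6 alone had an unadjusted p below 0.05. Without the filter no member was called in 8CB against 1C, among 0.449% of genes. Fgfr2 (1.06, SE 0.572, 95% interval -0.06 to 2.18) and Phlda1 (-0.51, SE 0.425, 95% interval -1.34 to 0.32) were each compatible with no difference and with a sizeable one in the direction of its estimate.

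Shares within pairs of related genes, which do not depend on the scaling between embryos, were compared in embryos with at least 10 UMIs of the pair. Dusp6 made up 85.8 ± 9.49% of Dusp4 and Dusp6 UMIs in the 12 embryos of the 2CB/4CB pool and 6.11 ± 5.36% in the only 3 of the other pool with enough UMIs (SD). These values are a description and no test of them is given: with so few Dusp6 UMIs in 1C and 8CB, an embryo there reached 10 UMIs of the pair almost only through Dusp4. With a minimum of 5 UMIs, 5 embryos of the 1C/8CB pool counted and their mean share was 19.7%. Over all embryos the pooled share was 3.33% in 1C (1 of 30 UMIs, exact 95% interval 0.0844% to 17.2%) and 45% in 8CB (9 of 20 UMIs, 23.1% to 68.5%), although the only 8CB embryo with 10 UMIs of the pair was at 10%.

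Fgfr2 made up 45.3 ± 20.3% of receptor UMIs of the 12 2CB/4CB embryos and 66.9 ± 21.7% of those of 10 1C/8CB embryos (SD), a difference of -21.5 percentage points that did not pass (permutation p = 0.0268, adjusted over 9 tests p = 0.120). It passed without 4CB replicate 5 (-26.1, adjusted p = 0.0160) or without 1C replicate 5 (-26.4, adjusted p = 0.0465), and was smaller with a minimum of 5 UMIs (-15.5, adjusted p = 0.331) or 20 UMIs (-16.7, adjusted p = 0.411). The lowest Fgfr2 share in 8CB was 63.4%, and in 1C shares ran from 22.7% to 88.9% (5 embryos each). The shares of Spry4 in the Sprouty pair and of Etv5 in the ETV pair did not pass in any tested comparison, with adjusted p from 0.268 to 0.976.

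**Figure D3:**
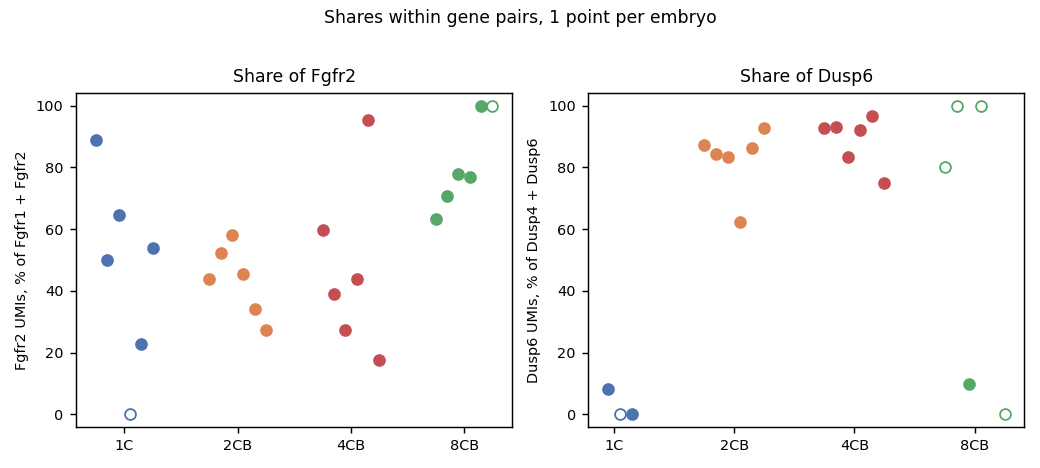
Share of Fgfr2 in Fgfr1 and Fgfr2 UMIs and of Dusp6 in Dusp4 and Dusp6 UMIs (percent), 1 point per embryo, by stage. Filled points have at least 10 UMIs of the pair and entered the comparisons, open points have fewer, and embryos without a UMI are not drawn. Dusp6 shares are at 62.4% or more in all 12 embryos of the 2CB/4CB pool.

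Among embryos of the same stage few members varied together detectably. Of 10 pairs of tested members, with each embryo's log2 CPM taken relative to its stage mean, only Fgfr1 and Phlda1 passed (n = 24, Pearson r = 0.61, permutation p = 0.00442, adjusted over 10 pairs p = 0.0442). Spearman's rho was 0.41 (permutation p = 0.0690, adjusted p = 0.351). The coefficient was 0.59 within the 2CB/4CB pool and 0.66 within the 1C/8CB pool (12 embryos each). It was 0.37 without the 2 embryos with the most extreme Fgfr1, and the call was lost on leaving out any of 13 embryos (1C replicates 1 to 5, 2CB replicate 3, 4CB replicates 1, 3, 4 and 5, and 8CB replicates 1, 2 and 6). Dusp6 with Spry2 gave r = 0.12 (permutation p = 0.626) and Dusp6 with Phlda1 gave r = 0.21 (permutation p = 0.505, with -0.39 within the former pool and 0.54 within the latter).

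By the same measure, over 24 embryos and the 3556 tested genes averaging 50 CPM or more, the genes whose pattern was most like each member were Plekhf1 for Phlda1 (r = 0.83), Gatad2b for Fgfr2 (0.78), Atmin for Fgfr1 (0.77), Ankmy2 for Spry2 (0.73) and Cmpk1 for Dusp6 (0.73). For Fgfr1, Fgfr2 and Spry2 the next gene had the same r to 2 decimals, so these names single out little.

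Of 112 other FGF-ERK pathway genes found in the table, 36 passed the filter, of which 16 were called higher and 5 lower in the 2CB/4CB pool, a split to be read against the 31.3% higher and 24% lower (55.3% in all) among the tested genes. Their median log2 difference was 0.35, against 0.12 over all tested genes. In 4CB against 2CB edgeR called 0 of the 36 and DESeq2 called 1, and 4 had an unadjusted p below 0.05. In 8CB against 1C both tools called 0 and 2 had such a p.

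**Figure D4:**
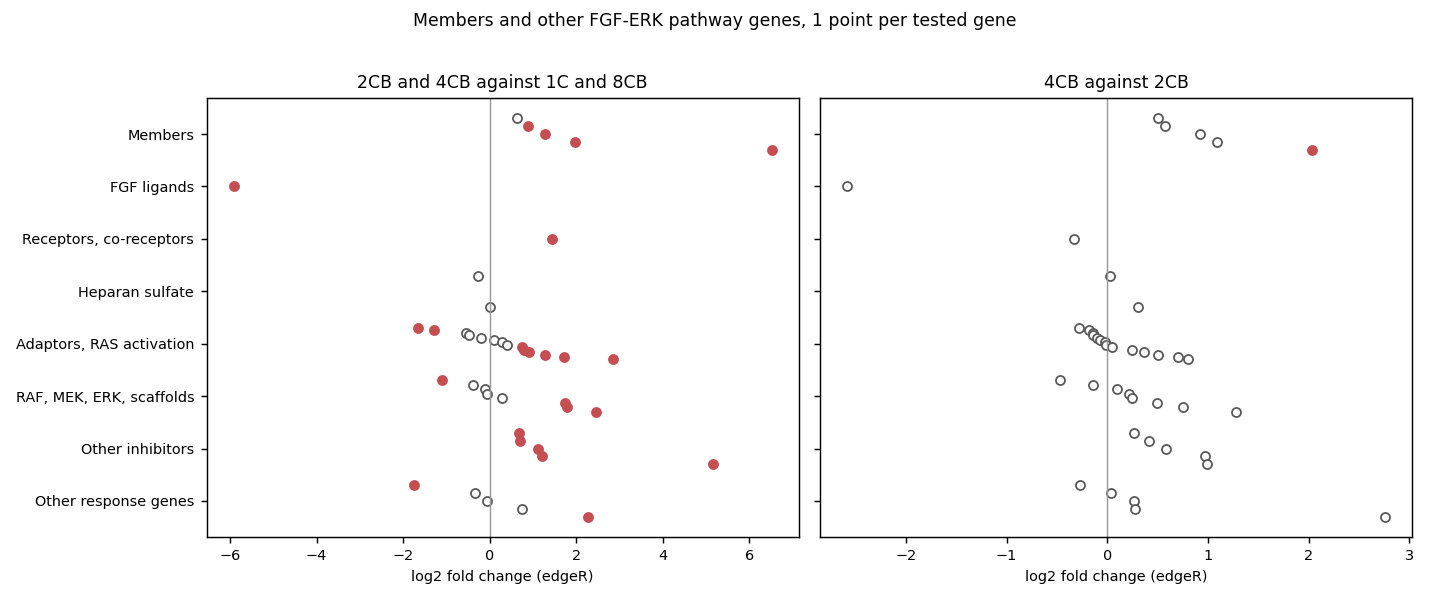
Log2 fold change of each tested member and of each tested gene of 7 other pathway lists, for the 2CB/4CB pool against the 1C/8CB pool (left) and 4CB against 2CB (right, a separate scale). Filled red points passed an edgeR adjusted p below 0.1. The 5 tested inhibitors all lie to the right of 0 on the left side, and Phlda1 is the only filled point on the right. Points beyond 5 on either side on the left, and that of Fgf1 on the right, are set against groups with few or no UMIs and their position is not a measured fold.

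Of the 17 other ligands listed, 1 passed the filter. It was Fgf1, the broadly acting FGF, and it was lower in the 2CB/4CB pool: it had 85 and 65 UMIs in 1C and 8CB but 8 and 0 in 2CB and 4CB, a pooled ratio of 0.0237 (counting interval 0.0100 to 0.0478), and passed the filter only through the 1C/8CB pool, so its call is no separate support. Its levels overlapped at 0, since 1 1C and 1 8CB embryo had none. Of the 16 ligands that did not pass the filter, 4 had a higher and 4 a lower pooled CPM in the 2CB/4CB pool and 8 had no UMI. Among them, Fgf10, named after its values were seen, had 139 UMIs in 2CB and 37 in 4CB against 2 in 1C and 5 in 8CB. Its pooled ratio across the pools was 11.1 (counting interval 5.30 to 28.1). The receptor kinase genes Fgfr3 and Fgfr4 were near the limit, with 13 and 26 UMIs in the 2CB/4CB pool and 17 and 2 in the other. Of the 11 listed receptors and co-receptors that did not pass the filter, 5 had a higher and 5 a lower pooled CPM in the 2CB/4CB pool and 1 had no UMI. Among them, Fgfrl1, named with the next 2 after their values were seen, had 51 UMIs in 10 of 12 embryos of the 2CB/4CB pool and 7 in 2 of 12 of the other. Flrt3, which encodes a membrane protein that binds FGF receptors, had 405 UMIs in 10 of 12 and 0 in the other pool. Sdc1, another syndecan gene, had 26 UMIs in 5 of 12 and 37 in 11 of 12. The co-receptor gene Sdc4, a syndecan that carries heparan sulfate, was higher in the 2CB/4CB pool (1.44, SE 0.258, edgeR adjusted p = 3.52e-05), at 629 ± 179 and 516 ± 144 CPM against 189 ± 174 in 1C and 237 ± 102 in 8CB (SD, n = 6 each). Neither of the 2 tested heparan sulfate enzymes was called.

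Of 14 tested adaptors and RAS genes, 6 were higher and 2 lower in the 2CB/4CB pool. Over all tested genes 31.3% were called higher and 24% lower. The largest rises were in Gab2 (2.84, SE 0.531), a docking protein gene, Mras (1.70, SE 0.201), a RAS-family GTPase gene, and Shoc2 (1.28, SE 0.347), whose product acts with MRAS on RAF (edgeR adjusted p of 6.30e-05, 5.80e-08 and 0.00313). Gab2, with 5 UMIs in 1C and 21 in 8CB, passed the filter only through the 2CB/4CB pool. Its call is therefore no separate support, and its fold rests on those few UMIs. Sos1, which encodes the RAS exchange factor, fell by 1.67 on the log2 scale (SE 0.288, adjusted p = 2.17e-05), and Ptpn11, the SHP2 phosphatase gene, fell by 1.29 (SE 0.354, adjusted p = 0.00346). Mras levels did not overlap between the sides, as for 3.54% of tested genes. They were at 172 CPM or more in every 2CB/4CB embryo and at 119 CPM or less in every other.

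Of 8 tested kinases and scaffolds of the cascade, 3 were higher and 1 was lower (31.3% and 24% over all tested genes). The scaffold gene Iqgap1 rose by 2.44 (SE 0.228, edgeR adjusted p = 9.79e-10), also without overlap, at 395 CPM or more against 271 CPM or less. The RSK kinase genes Rps6ka3 and Rps6ka1 rose by 1.80 (SE 0.557) and 1.75 (SE 0.259). Rps6ka3 had 8 UMIs in 1C and 25 in 8CB and passed the filter only through the 2CB/4CB pool, so its call is no separate support. Map2k2, which encodes the MEK2 kinase, fell by 1.09 (SE 0.180, adjusted p = 1.15e-05).

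Of 18 other inhibitors of RAS and ERK, 5 passed the filter, and these 5 were higher in the 2CB/4CB pool, where 31.3% of all genes were called higher. A gene low in the 1C/8CB pool could pass through its level in the deeper pool. Of the 13 that did not pass, 10 had a higher and 3 a lower pooled CPM in the 2CB/4CB pool. Among these, named after their values were seen, the ERK phosphatase gene Dusp9 had 231 UMIs in the 2CB/4CB pool and 10 in the other. Spred3, a Sprouty-related gene, had 9 UMIs in the 2CB/4CB pool (1.35 CPM, counting interval 0.618 to 2.57) and 33 in the other (11.2 CPM, 7.69 to 15.7). Errfi1, a feedback inhibitor gene of EGF-family receptors, was among the 5 that passed. It passed only through the 2CB/4CB pool, so its call is no separate support. It had 162 and 194 UMIs in 2CB and 4CB, 13 in 1C and 0 in 8CB. Its pooled ratio was 12.1 (counting interval 7.01 to 23.0). Every 2CB/4CB embryo was above every embryo of the other pool, as for 3.54% of tested genes. Dusp10, a phosphatase gene of stress kinases, rose by 1.20 (SE 0.435) and Nf1, which encodes a RAS GTPase activator, by 1.12 (SE 0.400), with edgeR adjusted p of 0.0232 and 0.0220.

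Of 5 tested response genes, Erf, which encodes an ETS repressor that ERK exports from the nucleus, rose by 2.27 (SE 0.237, edgeR adjusted p = 6.98e-09), and Etv6, another ETS repressor gene, fell by 1.74 (SE 0.511, adjusted p = 0.00595). Jun, an early response gene of ERK and stress kinases, was the gene that DESeq2 called in 4CB against 2CB (2.78, adjusted p = 0.0570) and edgeR did not (2.76, SE 0.678, adjusted p = 0.302). It was named after its values were seen. Each of the 6 4CB embryos, at 46.1 to 335 CPM, was above each of the 6 2CB embryos, at 5.08 to 43.3 CPM, as for 0.152% of tested genes.

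Many lineage markers differed across the pools, where 31.3% of all tested genes were called higher and 24% lower. Of 14 tested trophectoderm markers 11 were higher and 1 lower. Their summed level was 3545 to 7161 CPM in the 2CB/4CB pool against 727 to 1443 CPM in the other. For primitive endoderm it was 8 higher and 1 lower of 10 tested, at 1727 to 4439 against 823 to 1569 CPM. For epiblast and ICM it was 2 higher and 4 lower of 7 tested, at 379 to 1305 against 648 to 2088 CPM, in a list that also holds Fgf4. The cumulus list had 1 tested gene, Nr5a2, which embryos also express, and 2 to 4 of its 11 genes had a UMI in a given stage, summing to 57.4 to 156 CPM in the 2CB/4CB pool, 251 to 477 CPM in 1C and 84.6 to 226 CPM in 8CB. The oocyte list, with no gene tested, summed to 34.6 to 117 CPM for 1C, 9.11 to 68.2 for 8CB and 5.21 to 25.5 for the 2CB/4CB pool. Of 10 tested heat shock and stress genes, 3 were higher and 4 lower. The part of these markers in the differences of the members was not tested.

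Between 4CB and 2CB, where Phlda1 changed, 0 of the 14 trophectoderm, 10 primitive endoderm and 7 epiblast and ICM markers tested were called. Of 10 tested heat shock and stress genes 1 was called, Hspa1b, which encodes an inducible HSP70 and was the other of the 2 genes called in this comparison (4.73, SE 0.726, edgeR adjusted p = 0.00208). All 10 had a positive difference, against 49% of all tested genes. Hspa1b did not exceed 35.3 CPM outside 4CB and passed the filter mostly through 4CB, so its call is no separate support. Hspa1a, an untested gene of the same family named after its values were seen, had 947 UMIs in 4CB and 42 in 2CB. Hspa1b ranged from 0 through 385 to 518 CPM in 4CB and from 0 through 7.31 to 31.2 CPM in 2CB, with 5 of 6 4CB embryos above all 2CB embryos. The summed level of the 16 listed stress genes was 2878 to 6270 CPM in 4CB and 1642 to 4182 CPM in 2CB, and its part in the Phlda1 difference was not tested.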

How the data were processed

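Pseudoblastocysts were sequenced singly with CEL-Seq2. The authors aligned reads to GRCm38 with HISAT2 and deposited whole-number UMI counts per gene and embryo, counted with HTSeq. Per the submitters' processing notes the versions were HISAT2 2.2.6, HTSeq 0.6.1 and DESeq2 1.10.1. The annotation release and strand setting are not given in the sources used here. Columns of 24 morulae were not used. Of 52366 genes, 51633 were given symbols from GENCODE M21, which also gave positions. The largest count of a member in an embryo, 426, was below the 4096 sequences of a 6-base UMI, but 53029 for another gene was not, so intervals cover counting error only and may be too narrow.

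Counts were normalized by TMM and filtered with filterByExpr, and 1 quasi-likelihood model with a mean for each stage was fitted over all genes in edgeR 4.0.16 (R 4.3.3), with Benjamini-Hochberg adjustment and a threshold of 0.1. SEs are the fold change divided by the root of its F statistic. Values of unfiltered genes come from the same model without the filter. Shares and CPM were compared by exact permutation, or with 100000 resamples for 20 or more embryos, in NumPy 2.4.6, and correlations by 100000 permutations within stages (prior count 2). Intervals are exact 95% intervals (SciPy 1.17.1). Scripts were tested on simulated data. Alternatives used DESeq2 1.42.0, its size factors, other filters, thinning, a replicate block, subsets and embryos left out. The members and gene lists were chosen with earlier results of these data known. The genes named are the members, up to 3 called genes each way per list, and the gene most like each tested member.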

Additional observations from a re-analysis of the deposited data

Results flagged for a closer look

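Within the 6 2CB embryos, Dusp6 in replicate 3 (248 CPM, from 95 UMIs) lay far above the next embryo, at 152 CPM. The gap was 0.761 of the range of the group, above Dixon's 95% critical value for 6 samples. It was the only such value in 30 groups of a member and a stage, and chance gives about 1 in 20.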

How the results depend on the processing

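Over 1274 alternative values of 41 results no called value changed sign, and 1201 kept their side of the threshold or, for counts, stayed within 1.5 times. Values that were not called did change sign: in 4CB against 2CB, Dusp4 ran from -0.61 to 0.63, Etv4 from -1.30 to 0.48, Etv5 from -0.45 to 0.44 and Spry4 from -0.03 to 0.69, and in 8CB against 1C Spry2 ran from -0.36 to 0.03. Without the filter, 8 of 10 members were called among the stages, a count given without the share over all genes and not to be read alone. Across the pools 8 members were called (where 23.8% of 23171 genes were). Pathway calls became 43 of 101 across the pools (21 of 36 with the filter), 1 in 4CB against 2CB (Jun) and 1 in 8CB against 1C (Errfi1, with no UMI in 8CB). Fitting only the embryos compared, or DESeq2, also gave 1 pathway call, Jun, in 4CB against 2CB. Thinning to the lowest total left 11 pathway genes and 3 members tested, of which 9 pathway genes were called across the pools (58.9% of all 2041 genes tested), 1 member in 2CB against 1C (46.2%) and 0 in 4CB against 2CB, where Phlda1 was 1.91 (edgeR adjusted p = 0.606). It ended the pool calls of Fgf4, Dusp4 and Etv5 (0.83, adjusted p = 0.516) and made one of Etv4 (2.36, adjusted p = 0.0241). Thinning on the genes tested at full depth, added after the data were seen, gave 0 members and 1.86 (adjusted p = 0.431). Fewer UMIs per embryo are part of that alternative. A replicate block gave 0 members in 4CB against 2CB and 1.98 for Phlda1 (adjusted p = 0.313), and across the pools called Etv4 (1.41, adjusted p = 0.0995) and not Etv5 (1.18, adjusted p = 0.108); the numbers come from column names, and over 36 pairs of same-numbered embryos the deviations correlated at -0.016 on average (-0.248 to 0.224), so they share only a number. Of the shares, 1 had an adjusted p below 0.05 (Dusp6, in embryos that the minimum of UMIs itself selects, so it is not used) and 0 with 20 UMIs as the minimum, since no 1C or 8CB embryo then counted. Leaving out 1 embryo gave 0 to 1 members and 1.86 to 2.21 for Phlda1 in 4CB against 2CB, 0 to 2 shares and 0 to 2 correlations; the cause was not tested. Scaling by DESeq2's size factors moved the median log2 difference across the pools from 0.12 to 0.17 and changed no call of the 5 tested members, but Etv4 was then called across the pools (1.33, adjusted p = 0.0817). Depth limits Fgf4, Spry4, Etv4 and Etv5, which have 0 to 19 UMIs in 1C or 8CB.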
